A study of Mus musculus with 6 samples.

Results

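The array data were read for 7 genes, namely the chemokine genes Cxcl1, Cxcl2, Cxcl3, Cxcl5 and Cxcl12 and the receptor genes Cxcr2 and Cxcr4. They were chosen by symbol, as ligands and receptors of the CXC family known for moving neutrophils. Of these 7 genes 6 have a named probe on the array, with 12 probes in all, out of 19030 genes named by the array annotation used here. Cxcl5 was not analysed here, because no probe carried its symbol in that annotation. A gene was tested only if its probe was above background on at least 3 of the 6 arrays, which left 5 members (Cxcl1, Cxcl2, Cxcr2, Cxcl12 and Cxcr4) among 10827 genes tested. Cxcl3 was not above background on any array.

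The samples were tumours of 4T1 cells, a mouse mammary carcinoma line from the BALB/c strain, grown in the mammary fat pad of female BALB/c mice aged 8 to 10 weeks and taken on day 7. Before implantation the cells of 3 tumours had been stably transduced with an empty lentiviral vector, and those of the other 3 with a vector carrying mouse uPA, the urokinase plasminogen activator, a protease that turns plasminogen into plasmin. Which promoter the vector had, and whether the lines were clones or mixed populations, was not stated in any source read here. Plau, which encodes uPA, differed by -0.80 in log2 intensity (limma, SE 0.154, adjusted p = 0.0326) with the lower level under the label uPA overexpression, against what that label says, and directions are therefore given by label. The sequence of the Plau probe was not available, so whether it reads the transduced copy was not tested. The Plau call was lost without any single array, with adjusted p from 0.0526 to 0.110. The labels do not say that each tumour came from its own mouse, so the p-values measure only the spread between these tumours, and the number of arrays limits the precision. On each array 43.6% to 46.1% of probes were above background, and the mean raw intensity was 415.7 to 460.8. In whole tumours, fewer cells of a type and less RNA per cell cannot be told apart.

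CXC chemokines that carry the amino acids Glu-Leu-Arg before their cysteines bind the receptor encoded by Cxcr2 and draw neutrophils out of the blood into tissue. In mice, Cxcl1, Cxcl2, Cxcl3 and Cxcl5 encode such ligands, and epithelial cells, fibroblasts and myeloid cells make them after signals such as interleukin 1 and tumour necrosis factor, largely through the transcription factor NF-kappaB. Cxcl12 encodes a chemokine without that motif, made by stromal and endothelial cells, which holds neutrophils in the bone marrow through the receptor encoded by Cxcr4. Tumour cells can use both axes, and 4T1 tumours are known for raising neutrophil numbers in their hosts.

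The genes of the neutrophil attractants lie side by side. In the RefSeq annotation of the mouse assembly GRCm38.p6, the protein-coding genes on chromosome 5 run in the order Cxcl5, Ppbp, Pf4, Cxcl3, Cxcl15, Cxcl1 and Cxcl2. The RefSeq promoter windows of Cxcl1, Cxcl2 and Cxcl3, 250 bases before to 50 bases after the gene start, are shown because these 3 genes share a site of the NF-kappaB type that the other members with a window lack. Capitals mark the 10 letters of that exact kappaB site, and each window is read on the plus strand of the C57BL/6J reference, which may differ from BALB/c.
Cxcl1 at chr5:90890995-90891294: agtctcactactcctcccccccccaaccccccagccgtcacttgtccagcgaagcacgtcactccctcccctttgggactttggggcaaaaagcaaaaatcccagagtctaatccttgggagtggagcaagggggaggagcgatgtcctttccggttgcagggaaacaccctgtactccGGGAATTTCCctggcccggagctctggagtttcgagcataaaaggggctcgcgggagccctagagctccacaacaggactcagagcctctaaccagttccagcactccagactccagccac
Cxcl2 at chr5:90903649-90903948: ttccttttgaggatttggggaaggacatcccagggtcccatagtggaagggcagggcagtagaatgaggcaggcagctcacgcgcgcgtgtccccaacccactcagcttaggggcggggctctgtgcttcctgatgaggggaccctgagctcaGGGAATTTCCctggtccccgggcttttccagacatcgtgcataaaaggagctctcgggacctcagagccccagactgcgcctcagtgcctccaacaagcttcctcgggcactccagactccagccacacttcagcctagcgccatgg
Cxcl3 at chr5:90785851-90786150: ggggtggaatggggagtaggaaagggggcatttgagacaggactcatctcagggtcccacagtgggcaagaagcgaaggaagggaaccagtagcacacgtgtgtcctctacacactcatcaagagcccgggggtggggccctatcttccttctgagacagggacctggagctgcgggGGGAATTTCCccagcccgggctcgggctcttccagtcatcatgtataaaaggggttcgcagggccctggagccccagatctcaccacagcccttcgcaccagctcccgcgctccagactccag

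The site starts 71 bases before the start of Cxcl1, 97 before that of Cxcl2 and 73 before that of Cxcl3. Searched on both strands, these letters stand in 29 of 32851 RefSeq promoter windows, or 0.0883%. The windows of Cxcr2, Cxcl12 and Cxcr4 do not hold them, nor a broader kappaB form with 3 of the 10 letters left free, which overlaps the exact one and stands in 4.79% of windows. The letters ATAAAAG, of the TATA type, start 34, 57 and 29 bases before the starts of Cxcl1, Cxcl2 and Cxcl3 and 29 bases before that of Cxcr4, against 5.42% of windows. TGANTCA, an AP-1 type motif found in 7.81% of windows, is in none of the 6. Beside Cxcl1 and Cxcl2, 10 genes whose window holds the exact site were tested on the arrays, with a median difference of 0.05. Of these 1 rose, Lyzl4 (log2 difference 1.06, SE 0.150, limma adjusted p = 0.0155), and 0 fell, where 2.30% of all genes rose and 3.08% fell.

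Cxcl1 had the clearest difference of the members. Its raw intensity was 2264, 1816 and 1975 in the empty vector tumours and 650.5, 916.9 and 889.0 in the tumours labelled uPA overexpression. On the normalised log2 scale it read 11.01, 10.83 and 11.00 against 9.26, 9.78 and 9.60. All 3 tumours labelled uPA overexpression lay below all 3 empty vector tumours, and the lowest was the first replicate of that label. The groups averaged 10.95 ± 0.10 (SD, n = 3) and 9.55 ± 0.27 (SD, n = 3) in log2 intensity. Cxcl1, a main neutrophil attractant of mice, was thus 2.64-fold lower, a log2 difference of -1.40 (SE 0.151, limma with Benjamini-Hochberg adjustment, adjusted p = 0.0120). The 95% confidence interval of the difference was -1.76 to -1.05. In the processed values the authors deposited, it fell by 1.33.

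Among the 5 tested members 2 fell, Cxcl1 and Cxcl2, and 0 rose, while 3.08% of all genes tested fell, 2.30% rose and 5.38% changed in either direction. Groups did not overlap for 3 members, Cxcl1, Cxcl2 and Cxcr2, where 29.7% of all genes had groups that did not overlap. By the thresholds of the series design, an unadjusted p under 0.05 with a change of more than 1.5-fold, 1 member was different, Cxcl1, against 7.55% of all genes in either direction and 4.38% that were lower. Cxcl2 entered the test only through the arrays where it was high, and with probes detected on all 6 arrays the count that fell was 1, Cxcl1. The counts therefore only describe the members, and nothing is read from them against the shares over all genes.

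**Figure D1:**
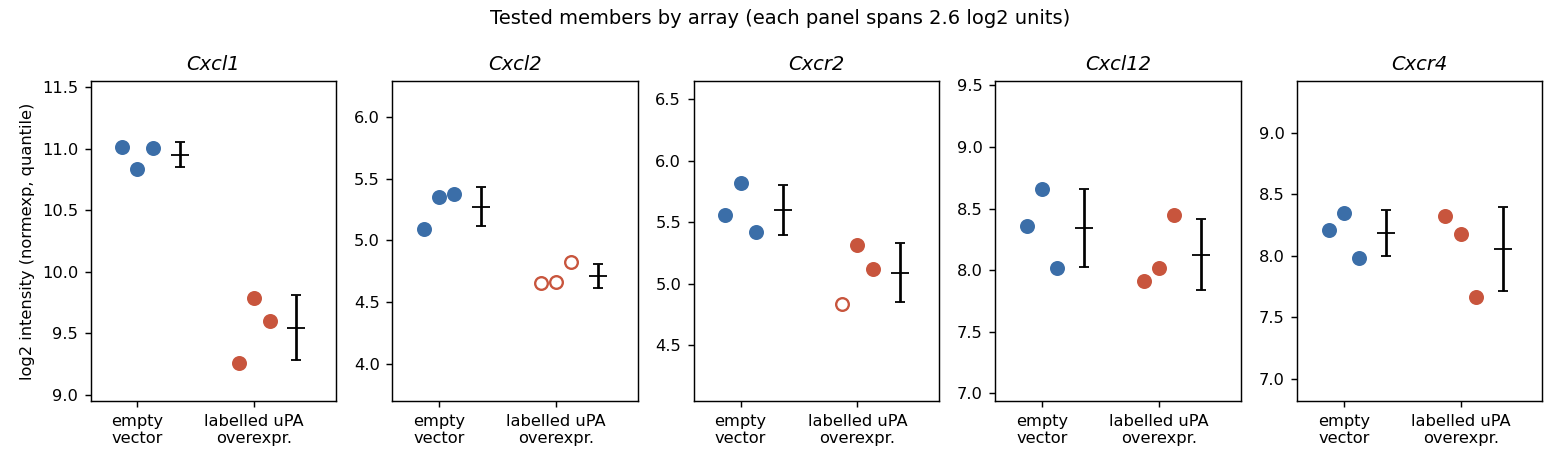
Log2 intensity of the 5 tested members on each array, as points (filled, above background; open, not above background), with the mean and SD of each group of 3 arrays beside them; each panel spans 2.6 log2 units. The groups of Cxcl1 lie 1.40 apart, those of Cxcl2 and Cxcr2 are separate by less, and those of Cxcl12 and Cxcr4 overlap.

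Cxcl2 encodes a second neutrophil attractant, and its signal was close to background. The brighter of its probes (ILMN_2811154) had a raw intensity of 92.0, 93.0 and 93.7 in the empty vector tumours, with detection p-values of 0.0406, 0.0150 and 0.00855. In the tumours labelled uPA overexpression it read 77.1, 78.3 and 83.5, with detection p-values of 0.182, 0.170 and 0.0780. The groups did not overlap, and the probe passed detection on all 3 empty vector arrays and on 0 of the others. The probe met the filter of 3 arrays through the empty vector arrays alone, so the filter and the test rest on the same values. With that limit, and only under the background correction used here, Cxcl2 was at least 1.26-fold lower in the tumours labelled uPA overexpression, a bound not itself tested. This bound compares the mean of the empty vector arrays with the lowest signal above background or, where higher, the probe's own. The measured group means were 5.27 ± 0.16 and 4.71 ± 0.10 (SD, n = 3) in log2 intensity, a difference of -0.56 (SE 0.12, adjusted p = 0.0443 by limma).

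The Cxcl2 call did not hold under many of the alternatives. It was lost without background correction (-0.25, adjusted p = 0.0930 by limma), with a larger offset (-0.27, adjusted p = 0.103), in the deposited processed values (-0.25, adjusted p = 0.0937), and on adjustment over all probes (adjusted p = 0.0528, where 3.57% of 20434 probes were called), and these uncorrected and deposited differences are smaller than the bound. Leaving out any 1 array also ended it, with adjusted p from 0.0690 to 0.143. The second probe of Cxcl2 (ILMN_2778289) was not above background on any array.

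Cxcl3, the third attractant of the cluster, had 1 probe. Its raw intensity was 77.4, 61.8 and 60.0 in the empty vector tumours and 60.7, 58.3 and 65.5 in the others, with detection p-values from 0.227 to 0.991. No array measured it above background, so no fold is given. The array thus holds no usable value for Cxcl3 in either group, and a level below its reach is possible in both.

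**Figure D2:**
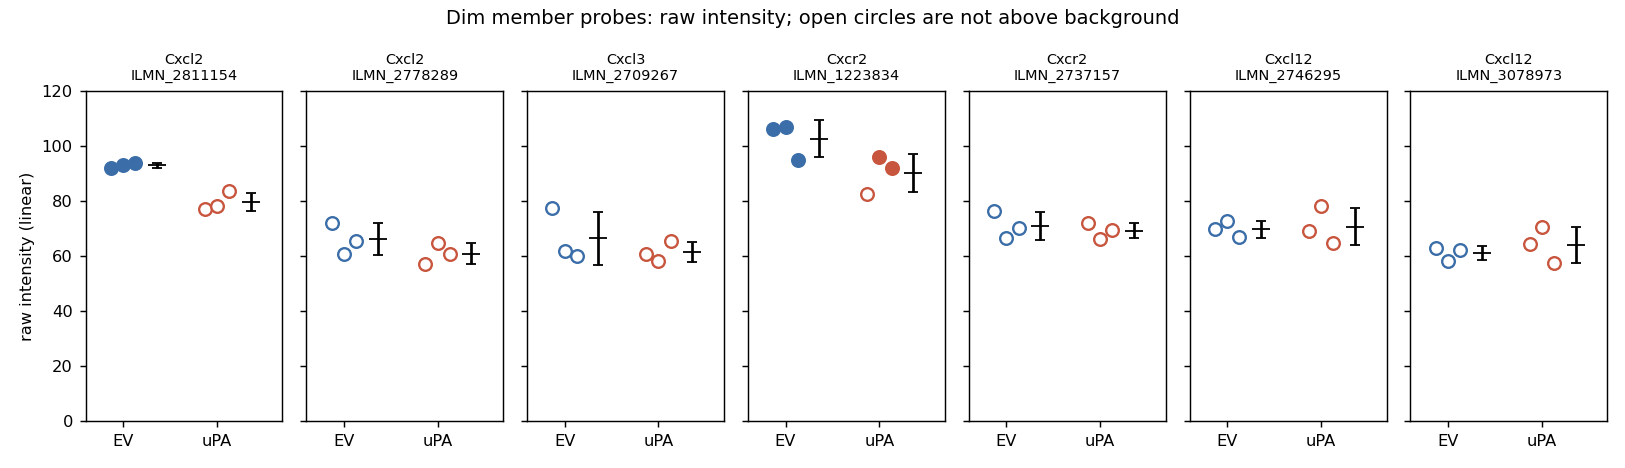
Raw intensity of the 7 member probes that were not above background on all 6 arrays, on a linear axis from 0, as points (filled, above background; open, not above background), with the mean and SD of 3 arrays (EV, empty vector; uPA, labelled uPA overexpression). The brighter Cxcl2 probe sits at 92.0 to 93.7 against 77.1 to 83.5, and the probe of Cxcl3 shows open circles in both groups.

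Cxcr2 encodes the receptor for these attractants and is carried mainly by neutrophils. Its brighter probe (ILMN_1223834) had a raw intensity of 106.2, 106.7 and 95 in the empty vector tumours and 82.4, 96.1 and 91.9 in the tumours labelled uPA overexpression. On the log2 scale these were 5.56, 5.82 and 5.42 against 4.84, 5.31 and 5.12, so the groups were next to each other without overlapping. It stood above background on 2 arrays labelled uPA overexpression and on all 3 others. The difference was -0.51 (SE 0.162, 95% confidence interval -0.89 to -0.13) and did not pass the test (adjusted p = 0.13 by limma). Left uncorrected for background it was -0.23, and from the deposited processed values -0.22. The second probe (ILMN_2737157) was not above background on any array.

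Cxcl12 was measured by 5 probes annotated to 3 transcripts, of which 3 probes were above background on all arrays. The brightest (ILMN_2658908) read 8.36, 8.65 and 8.02 as log2 intensity across the empty vector group and 7.91, 8.02 and 8.45 in the others, and the groups overlapped. Its difference was -0.22 (SE 0.203, 95% confidence interval -0.69 to 0.26, adjusted p = 0.592 by limma). The other probes above background differed by 0.06 (SE 0.362) and 0.13 (SE 0.330), with intervals of -0.79 to 0.91 and -0.64 to 0.91. The sign thus differed between probes, and each interval includes 0.

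The tumours differed more within a group than between groups for Cxcl12. The probe ILMN_2737302 read 7.21, 7.60 and 6.15 in the empty vector tumours and 6.81, 7.44 and 6.90 in the others. The probe ILMN_3158250, annotated to another transcript, read 7.25, 7.07 and 6.14 against 6.69, 7.47 and 6.71. Both were lowest in the third empty vector tumour, and in the tumours labelled uPA overexpression both were highest in the second, whereas the brightest probe was highest there in the third. The mean of the tested Cxcl12 probes differed by -0.01 (adjusted p = 0.992 by limma).

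**Figure D3:**
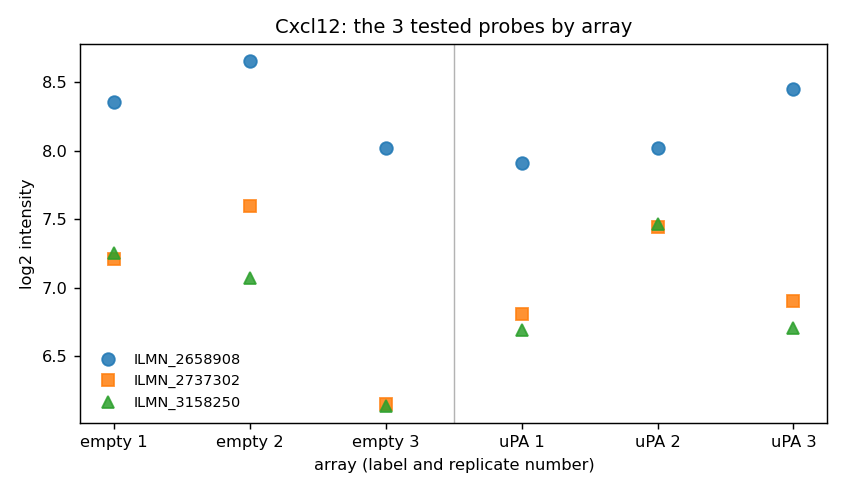
Log2 intensity of the 3 tested Cxcl12 probes on each array, with a grey line dividing the empty vector arrays (left) from the arrays labelled uPA overexpression (right). The lower probes, ILMN_2737302 and ILMN_3158250, share a low value of 6.15 and 6.14 in the third empty vector tumour, and all 3 probes overlap between groups.

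Cxcr4, the receptor gene for Cxcl12, had 1 probe. It read 8.21, 8.35 and 7.98 as log2 intensity across the empty vector group and 8.32, 8.18 and 7.67 in the others. The groups overlapped, and the lowest tumour was the third labelled uPA overexpression. The difference was -0.13 (SE 0.189, 95% confidence interval -0.57 to 0.32, adjusted p = 0.75 by limma), and it became 0.068 without the third tumour labelled uPA overexpression. Ackr3, the other receptor gene for Cxcl12, read 6.23, 7.23 and 6.12 against 5.29, 5.42 and 5.74, and its difference of -1.04 (SE 0.293) did not pass the test (adjusted p = 0.0935 by limma) although the groups did not overlap.

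In the rest of the CXC family 5 tested genes lay below 0 and 4 above. Of 16 other CXC chemokines and receptors on the array 9 were tested, of which 0 rose and 2 fell, where 2.30% of all genes rose and 3.08% fell. Their median difference was -0.02, against -0.00 over all genes tested. Cxcl14, an epithelial chemokine, read 10.72, 10.94 and 10.49 as log2 intensity across the empty vector group and 9.56, 9.68 and 9.71 in the others, and fell by 1.06 (SE 0.136, adjusted p = 0.0136 by limma), with another probe at -1.04. Its call was lost without the first empty vector tumour (adjusted p = 0.0579) and without the first labelled uPA overexpression (adjusted p = 0.0557). Cxcr3, a receptor of lymphocytes, fell by 0.77 (SE 0.162, adjusted p = 0.0430), and that call was lost without any 1 array (adjusted p = 0.0605 to 0.113). Without a filter on dim probes, or with a replicate block, 1 and 0 of this list were called.

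Ligands of Cxcr3 were higher in value but did not pass the test. Cxcl9, induced by interferon gamma, read 9.62, 7.69 and 9.61 in the empty vector tumours and 9.86, 11.37 and 10.24 in the others (difference 1.52, SE 0.586, adjusted p = 0.199 by limma). Cxcl10 read 8.24, 7.27 and 8.49 against 8.12, 9.20 and 9.68 (difference 1.00, SE 0.449, adjusted p = 0.254). The second empty vector tumour was the lowest for both genes. Of the neighbours of the attractant genes on chromosome 5, Pf4, a platelet and megakaryocyte chemokine, differed by 0.43 (SE 0.125, adjusted p = 0.106), while Ppbp was above background on 1 array and Cxcl15 on 0. Ackr3, Cxcl9, Cxcl10 and Pf4 were chosen for mention after their values were seen.

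Genes that induce the attractants or control NF-kappaB were mostly not called. Of 34 on the array 31 were tested, of which 3 fell and 0 rose, with a median of -0.12, where 3.08% of all genes fell and 2.30% rose. They were Csf2 and Il6, cytokine genes, and Zc3h12a, which encodes a ribonuclease that degrades cytokine transcripts. Zc3h12a read 8.22, 8.10 and 8.16 as log2 intensity across the empty vector group and 6.93, 7.50 and 7.38 in the others, a fall of 0.89 (SE 0.159, adjusted p = 0.0266 by limma). The difference was -1.29 (SE 0.225, adjusted p = 0.0251) for Csf2. For Il6 it was -1.0 (SE 0.192, adjusted p = 0.0325), with 2 arrays labelled uPA overexpression above background. Without the first or the third empty vector tumour or the first or the third labelled uPA overexpression, 0 of the 3 kept a call (adjusted p from 0.0559 to 0.114), and Il6 also lost it without the second empty vector tumour (adjusted p = 0.0624).

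The interleukin 1 genes, whose products induce Cxcl1, were lower in value but did not pass the test as genes. Il1a read 9.93, 8.45 and 9.84 in the empty vector tumours and 7.14, 8.55 and 6.55 in the others, groups that overlapped, with a difference of -2.0 (SE 0.570, adjusted p = 0.0980 by limma), while another probe, at -2.27, passed (adjusted p = 0.0391 over probes). Il1b read 11.08, 11.04 and 10.93 against 10.04, 10.78 and 10.14, a difference of -0.70 (SE 0.198, adjusted p = 0.0949). Tnf differed by 0.24 (SE 0.254, adjusted p = 0.636) and Nfkbia, an NF-kappaB target and inhibitor, by -0.12 (SE 0.137, adjusted p = 0.662). Il17a was not above background on any array. These genes were chosen for mention after their values were seen.

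Signalling genes downstream of chemokine receptors showed calls in both directions. Of 24 on the array 20 were tested, of which 1 rose and 2 fell, with a median of 0.17, where 2.30% of all genes rose and 3.08% fell. Called or not, 15 of the 20 lay above 0 and 5 below. Rac2, a small GTPase of blood cells, rose by 0.82 (SE 0.154, adjusted p = 0.0305 by limma), reading 7.75, 8.15 and 7.61 against 8.75, 8.61 and 8.60. Rgs1, which dampens chemokine receptor signals, fell by 0.95 (SE 0.174, adjusted p = 0.0294), with other probes at -0.64 and -0.72 that did not pass the test, and Ptk2b, a kinase of the focal adhesion family, fell by 0.70 (SE 0.137, adjusted p = 0.0349). Every call was lost without the first or the third empty vector tumour or without the first or the third labelled uPA overexpression. Rgs1 and Rac2 also lost theirs without the second labelled uPA overexpression (adjusted p = 0.0854 and 0.0787), and Ptk2b without the second empty vector tumour (adjusted p = 0.0600). Over single arrays left out, adjusted p for these genes reached 0.117.

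**Figure D4:**
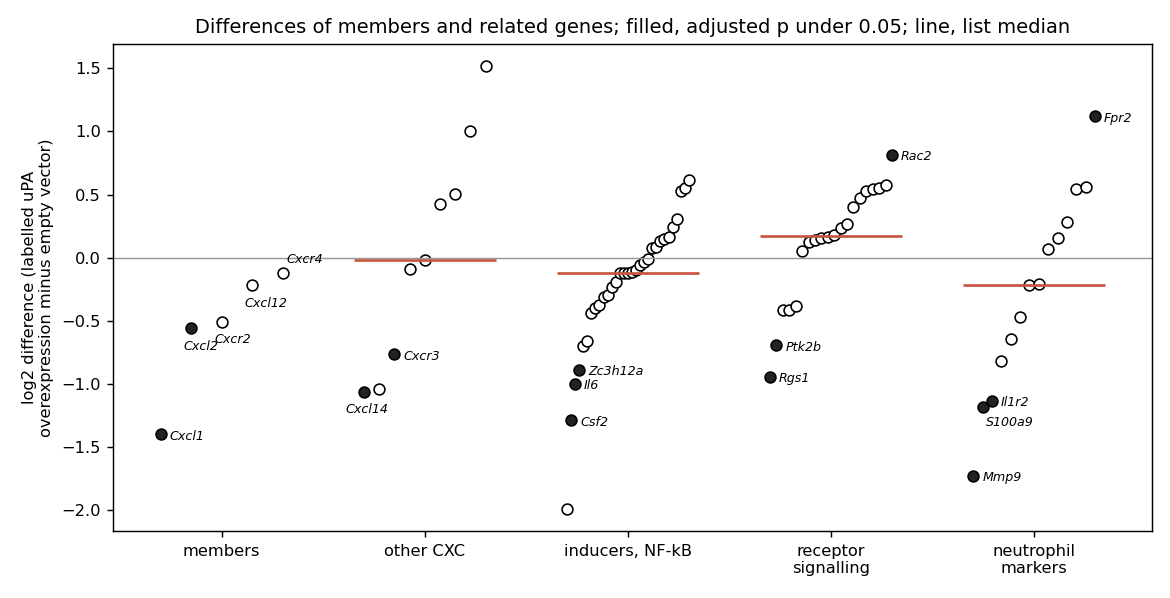
Log2 difference (tumours labelled uPA overexpression minus empty vector) of each tested member and of each tested gene in 4 lists of related genes, 1 point a gene; filled points have an adjusted p under 0.05, and lines mark list medians. Cxcl1 at -1.40 is the lowest member, and the called genes of each list are named.

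Markers of several cell types also differed between the groups, some lower like Cxcl1 and others higher, and their part in the result was not tested. Of all genes tested, 3.08% fell and 2.30% rose, shares to set beside the count of every marker list. Of 23 neutrophil genes on the array 14 were tested, of which 3 fell (S100a9, Il1r2 and Mmp9) and 1 rose (Fpr2), with a median of -0.21. Called or not, 8 of the 14 lay below 0 and 6 above. S100a9, a calcium-binding protein abundant in neutrophils, read 9.30, 8.97 and 9.49 against 8.05, 8.46 and 7.71 (difference -1.18, SE 0.214, adjusted p = 0.0284 by limma). Mmp9, a gelatinase of neutrophil granules also made by other cells, differed by -1.73 (SE 0.346, adjusted p = 0.0365), the decoy receptor gene Il1r2 by -1.14 (SE 0.182, adjusted p = 0.0203) and the formyl peptide receptor gene Fpr2 by 1.12 (SE 0.156, adjusted p = 0.0151). S100a8, the partner of S100a9, differed by -0.65 (adjusted p = 0.239). The summed level of the neutrophil genes was 14.27 to 14.41 in log2 in the empty vector tumours and 12.77 to 13.74 in the others. Mmp9 alone held 30.0% to 66.6% of that sum, and without it the groups overlapped, at 12.68 to 13.30 against 12.21 to 12.95. The lists of epithelium, macrophage and mast cell genes did not overlap between groups without their own largest gene. Treated likewise, the inducers were lower, at 14.08 to 14.15 against 13.86 to 14.03. Lymphocyte and NK cell genes were higher, at 8.16 to 8.48 against 8.79 to 8.95. Receptor signalling genes were barely separate, at 13.030 to 13.244 against 13.245 to 13.314. With the largest gene kept, both of these higher lists overlapped between groups. Their sums were then 10.23 to 10.51 against 10.44 to 10.52, and 13.78 to 13.96 against 13.90 to 14.03. Without their largest gene, the fibroblast, endothelial and other CXC lists overlapped. Of the neutrophil granule genes Mpo, Ngp and Mmp8 were not above background on any array, and Ly6g was not analysed here. Of 15 tested mammary epithelium genes 9 fell and 0 rose, with a median of -0.91 and a summed level of 15.49 to 15.67 against 14.75 to 14.99. Krt14, a basal keratin, read 13.59, 13.34 and 13.34 against 11.81, 12.34 and 11.93, a difference as large as that of Cxcl1 (-1.40, SE 0.160, adjusted p = 0.0121 by limma). Of 16 tested macrophage genes 10 rose and 0 fell, with a median of 0.79 and a summed level of 14.64 to 14.90 against 15.67 to 15.96, and C1qa, a complement gene, rose by 0.81 (SE 0.122, adjusted p = 0.0181 by limma).

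Without the first array of either group, 0 of the neutrophil genes were called, and without the third of either group 1 was. The epithelial calls numbered 1 and 4 without the first and the third empty vector tumours and 0 and 2 without the first and the third labelled uPA overexpression. The macrophage calls numbered 2 and 2, and 0 and 4, in the same order. Of 12 tested mast cell genes 8 rose and 0 fell, with a median of 1.27. Their summed level was 10.84 to 11.29 against 12.11 to 12.32. Mrgprb2, counted among the 8, met the filter only through the 3 arrays labelled uPA overexpression, so its filter and test share the same values. Requiring detection on all 6 arrays left 7 mast cell genes called. The mast cell calls numbered 1 without the first tumour labelled uPA overexpression and 5 without the third of either group. Of 5 tested lymphocyte and NK cell genes 1 rose, Nkg7 by 0.90 (SE 0.143, adjusted p = 0.0200 by limma), and it kept its call only without the second empty vector tumour (adjusted p = 0.0231).

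Markers of fibroblasts and endothelial cells, which can make Cxcl12, had 1 call. Of 14 tested fibroblast genes 1 fell and 0 rose, with a median of -0.06, where 3.08% of all genes fell and 2.30% rose. The summed level was 14.89 to 14.98 against 14.78 to 15.11. The gene that fell was Pdgfrb (-0.80, SE 0.135, adjusted p = 0.0225 by limma), which lost its call without any 1 array other than the second empty vector tumour. Of 11 tested endothelial genes 0 rose or fell at an adjusted p under 0.05 by limma, and Flt1, at -0.41, and Tek, at 0.26, had an unadjusted p under 0.05, as did 21.3% of all genes. The endothelial summed level was 12.90 to 12.99 against 12.55 to 12.97.

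The genes whose profile over the 6 arrays lay nearest to that of Cxcl1 were Dsg2, Il18rap and Rgs16. Each gene was centred on its own mean, and the root mean square difference from Cxcl1 was 0.07, 0.09 and 0.09 on the log2 scale among 9703 genes above background on all arrays, where the median gene was 0.73 away. Dsg2, a desmosomal cadherin of epithelia, read 10.21, 10.02 and 10.06 in the empty vector tumours and 8.52, 8.88 and 8.76 in the others. Il18rap, a subunit of the interleukin 18 receptor, read 7.06, 6.75 and 6.97 against 5.04, 5.76 and 5.44, and Rgs16, a regulator of G protein signals, 9.37, 9.22 and 9.27 against 7.81, 8.25 and 8.03. Within each group the order of the arrays was that of Cxcl1 for all 3 genes, which largely follows from choosing them for nearness over these arrays. All 3 fell between the groups, with adjusted p from 0.00727 to 0.0134 by limma, and a gene with a fall of like size comes near by that alone.

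**Figure D5:**
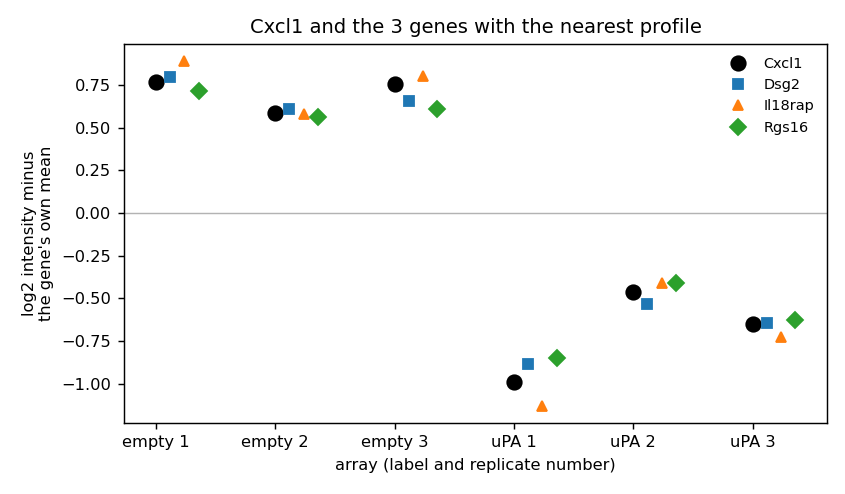
Log2 intensity minus the gene's own mean over 6 arrays for Cxcl1 and the 3 genes with the nearest profile, 1 group of points per array. Cxcl1 and its neighbours lie above 0 in the 3 empty vector tumours and below 0 in the 3 tumours labelled uPA overexpression, lowest in the first.

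Nearest to the brightest Cxcl12 probe were Hsd11b1, Sdk1 and Tmem40 (0.08, 0.09 and 0.09), and nearest to Cxcr4 were Hcfc2, Snx29 and Npdc1 (0.07, 0.08 and 0.08). None of these 6 genes was called, at differences from -0.27 to -0.03. Their distances say less than those of Cxcl1, since the median gene lay only 0.31 and 0.28 from Cxcl12 and Cxcr4.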

How the data were processed

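Raw intensities and the processed log2 values were deposited by the authors. By their values the intensities are neither background-subtracted nor normalised. The detection p-value the authors deposited rises to 1 for bright probes, so it was read as 1 minus p and turned round. Processed log2 values came from GeneSpring GX version 11.0, per the labels' series design text, and are centred per probe on an unknown level, with column medians near 0. The raw table gives bead addresses and the processed table probe IDs, so rows were matched by their values after quantile normalisation. Of 45281 rows 45179 matched, the median distance being 0.000492 to the match and 0.0325 to the next row. No probe list of the maker was used. Of 34885 probes with 1 symbol, 34816 were joined.

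Intensities were corrected by normexp with negative controls inferred from detection p-values (offset 16), quantile-normalised and log2-transformed (limma 3.58.1, R 4.3.3). Probes were kept if their detection p was below 0.05 on 3 or more arrays. They were fitted with lmFit and eBayes (two-sided), and the brightest probe stood for a gene. Benjamini-Hochberg adjustment ran over 10827 genes, with a threshold of 0.05. The fit and the row match were tested on simulated data. There the fit recovered 37.7% of genes changed 1.5-fold and 91.9% of those changed 2-fold, and 5.91% of its calls were false. Members, lists and the rule for named genes (every member probe, up to 6 called genes of a list, the 3 nearest genes of a member above background on all 6 arrays) were chosen with earlier results of these data known. Lists were described by counts, without a set test. Summed levels without the largest gene of a list were added after seeing the data. Probe sequences were not used, so signal shared between the similar chemokine transcripts was not tested. Promoter windows and gene order came from RefSeq, assembly GRCm38.p6, for 6 members.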

Additional observations from a re-analysis of the deposited data

How the results depend on the processing

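Across 17 alternatives 0 members rose. Of the 2 that fell, 1 remained, Cxcl1, without background correction, with an offset of 50, with only probes detected on all 6 arrays (where Cxcl2 was not tested), in the deposited values, with a replicate block, with a trended robust prior and without any single array. Under the ordinary test without moderation 0 fell (Cxcl1 -1.40, adjusted p = 0.0893; Cxcl2 -0.56, adjusted p = 0.115). Leaving out single arrays, Cxcl1 ranged from -1.52 to -1.26 (adjusted p from 0.0113 to 0.0491 by limma) and Cxcl2 from -0.65 to -0.52. Cxcl2 also lost its call without background correction (-0.25), with the offset of 50 (-0.27), in the deposited values (-0.25) and with the trended prior (-0.56, adjusted p = 0.0606). Cxcr4 ranged from -0.26 to 0.068, the latter without the third tumour labelled uPA overexpression.

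The deviations of same-numbered tumours from their group means correlated at r = -0.11, -0.22 and 0.12, and a differently numbered pair reached 0.31. With 3 arrays per group such values cannot tell whether the numbers pair the tumours, and the main fit did not pair them. With the replicate block Cxcl1 was at -1.40 (adjusted p = 0.0436), Cxcl2 at -0.56 (adjusted p = 0.111), 0 genes were called in each of the 3 pathway lists, and 77 of all genes were, against 583.

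Other CXC genes called numbered 2, against 1 without a filter, 0 under the ordinary test and 0 to 1 without single arrays. Inducers numbered 3, against 5 in the deposited values and without background correction, 7 with array weights, 0 under the ordinary test and 0 to 5 without single arrays. Receptor signalling genes numbered 3, against 9 with array weights, 0 under the ordinary test and 0 to 7 without single arrays. They numbered 5 without background correction, with the offset of 50, in the deposited values, with the trended prior and with the mean of probes. With only probes detected on all 6 arrays they also numbered 5. Over all genes the count was 1070 with array weights, 0 under the ordinary test and 32 to 602 without single arrays. For 32 genes, up to 6 called genes of each list whether or not named above, 382 of 543 values kept their call, 161 lost it and 0 reversed. The causes were not tested. Signals near background limit Cxcl2, Cxcl3 and Cxcr2.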
